A study of Mus musculus with 28 samples.

Results

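The genes described here are 4 keratins, Krt7, Krt8, Krt18 and Krt19, and 6 transcription factors, Cdx1, Cdx2, Elf5, Gata3, Tfap2a and Tfap2c. They were taken by name from the 37583 genes of each of 2 deposited expression tables, 1 for mouse embryonic stem cells (mESCs) and 1 for day 5 embryoid bodies (EBs), the aggregates that form when LIF is withdrawn. All 10 names had 1 row in both tables.

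The study compared stem cells that lack Eed, a core subunit of Polycomb repressive complex 2 (PRC2), or that lack or carry altered Elongin A (EloA, listed as Tceb3), a transcription elongation factor. In the CJ7 line the groups were Eed null, EloA K754M, EloA K754R and wild type, with 2 mESC and 2 EB libraries of each. In the CCE line the mESC groups were EloA null and EloA wild type, with 3 libraries each, and the EB groups were 2 pairs of libraries with conflicting genotype labels and 1 pair of EloA wild type. K754M and K754R replace the same lysine of Elongin A by methionine or by arginine. Of the conflicting EBs, pair A is EloA null by its titles and heterozygous by its column names, and pair B is the reverse, so neither was given a genotype. All stem cells were grown on feeder fibroblasts with LIF and inhibitors of MEK and GSK3, and were depleted of feeders by plating. The labels name no clone or culture, so the spread between libraries of a group may be technical.

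Keratins build the intermediate filaments of epithelial cells, each filament pairing a type II keratin (Krt7, Krt8) with a type I keratin (Krt18, Krt19). Krt8 and Krt18 are the first keratins of the mouse embryo and mark the trophectoderm, the outer layer of the blastocyst that forms the placenta. Cdx2 is required for trophectoderm, Elf5 keeps trophoblast stem cells in their state, and Gata3, Tfap2a and Tfap2c also act in the trophoblast lineage. Most of these genes have other roles: Cdx1 and Cdx2 pattern the posterior embryo and the gut, Tfap2c acts in primordial germ cells, Tfap2a in neural crest and surface ectoderm, and simple keratins also occur in visceral endoderm and other epithelia. PRC2 methylates histone H3 at lysine 27 and keeps many developmental regulators silent in stem cells.

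Values are RPKM, read counts divided by gene length and library size. Eed averaged 22.2 RPKM in Eed null mESCs against 112 RPKM in CJ7 wild type, and 16.03 RPKM in Eed null EBs against 52.5 RPKM in CJ7 wild type. Tceb3 averaged 6.84 RPKM in EloA null mESCs against 11.2 RPKM in CCE wild type, so RNA of both targeted genes remained in libraries labelled null. Depth, estimated from the value that 1 read gives, was 11100000 to 18200000 reads in CJ7 mESCs, 24300000 to 34600000 in EloA null and 42800000 to 46300000 in CCE wild type mESCs, and 23600000 to 39900000 in EBs. The CJ7 wild type, K754M and K754R mESC libraries differed more within their groups (lowest r over all genes 0.979, 0.971 and 0.971) than all other groups did (0.989 or more). In each of these 3 groups replicate 1 held more Krt7, Krt18 and Krt19 than replicate 2. Pou5f1, the defining factor of pluripotent cells, lay between 280 and 405 RPKM in all mESC libraries and between 3.44 and 179 RPKM in EBs.

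Krt8 and Krt18 are neighbours on chromosome 15, next to each other among protein-coding genes in RefSeq, and Krt7 lies in the same keratin cluster. The 250 bases before the start of these genes and of Cdx2 are shown because these are the members with a RefSeq promoter that were higher in Eed null cells. Windows are from RefSeq on GRCm38.p6, written 5′ to 3′ on the strand of the gene. Capitals mark matches, on either strand, to the AP-2 letters GCCNNNGGC, to those of GATA factors, AGATAA, or to the ETS letters AGGAAG. Windows were also searched for the CDX letters TTTATNG and for the TEAD letters GGAATG, which these 4 windows lack.
Krt8, chr15:102004343-102004592, minus strand: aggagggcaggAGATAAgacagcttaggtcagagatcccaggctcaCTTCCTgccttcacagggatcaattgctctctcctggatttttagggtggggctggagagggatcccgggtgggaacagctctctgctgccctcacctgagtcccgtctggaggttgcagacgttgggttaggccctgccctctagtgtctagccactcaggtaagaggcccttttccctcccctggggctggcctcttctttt
Krt18, chr15:102027966-102028215, plus strand: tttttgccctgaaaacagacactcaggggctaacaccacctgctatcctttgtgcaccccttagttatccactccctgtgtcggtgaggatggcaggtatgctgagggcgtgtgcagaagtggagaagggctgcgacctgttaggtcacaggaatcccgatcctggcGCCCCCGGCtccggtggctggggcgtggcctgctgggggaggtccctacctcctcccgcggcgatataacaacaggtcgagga
Krt7, chr15:101412153-101412402, plus strand: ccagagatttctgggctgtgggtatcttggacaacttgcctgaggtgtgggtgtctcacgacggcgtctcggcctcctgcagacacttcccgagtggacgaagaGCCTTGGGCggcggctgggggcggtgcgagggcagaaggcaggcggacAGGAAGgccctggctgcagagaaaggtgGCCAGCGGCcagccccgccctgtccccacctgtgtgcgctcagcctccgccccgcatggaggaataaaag
Cdx2, chr5:147307250-147307499, minus strand: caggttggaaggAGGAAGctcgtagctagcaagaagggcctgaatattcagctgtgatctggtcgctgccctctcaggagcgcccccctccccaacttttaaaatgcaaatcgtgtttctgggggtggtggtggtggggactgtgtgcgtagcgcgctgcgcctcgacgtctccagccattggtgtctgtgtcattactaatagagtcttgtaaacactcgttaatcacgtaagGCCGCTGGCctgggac
The matches shown did not overlap each other. The AP-2 letters occurred 2 times before Krt7, 1 time before Krt18, 1 time before Cdx2 and 3 times before Gata3, but not before Krt8, and 13.7% of all 32851 windows hold them. The GATA letters (9.99% of windows) occurred before Krt8, and the ETS letters (29.5%) before Krt7, Krt8, Cdx2 and both Tfap2a windows. The CDX letters (9.81%) were in no member window and the TEAD letters (12.6%) in 1 of the 2 Elf5 windows. The Krt7 window had 16 CpG sites, the Cdx2 window 13 and the Krt18 window 12, against 3 before Krt8 and a median of 6.0 over all windows. In all, 7 of the 10 genes had a window; Krt19, Cdx1 and Tfap2c had none in the table used here.

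The levels fell into 3 kinds across the 28 libraries. The 2 stages come in separate tables and the sources do not say how either was normalized, so levels of mESCs and EBs are set side by side without a test. Krt8 and Krt18 were low in mESCs outside the Eed null group (3.93 to 15.7 RPKM for Krt8 and 3.01 to 16.2 RPKM for Krt18) and very abundant in all EBs (533 to 1072 RPKM and 456 to 966 RPKM). By mean over all libraries they ranked 130 and 152 among the 37583 genes. Krt19 was intermediate, at 1.88 to 33.2 RPKM in mESCs and 16.4 to 113 RPKM in EBs.
Among the factors, Cdx2 was 0 to 4.35 RPKM in mESCs and 5.63 to 54.4 RPKM in EBs. Cdx1 and Tfap2c had the opposite order of stages outside the Eed null group: Cdx1 was 1.76 to 4.55 RPKM in those mESCs and at most 0.822 RPKM in those EBs, and Tfap2c was 7.87 to 14.3 RPKM in those mESCs and 1.04 to 4.37 RPKM in those EBs. Gata3 did not exceed 1.28 RPKM, Tfap2a 0.642 RPKM and Elf5 0.195 RPKM in any library. At these levels Elf5 rested on an estimated 0 to 35 reads per library and was tested in no comparison. Antisense genes overlap exons of Krt7, Krt8, Gata3 and Tfap2a in the GENCODE annotation. Whether counting used strand is not given, so their values are uncertain to that extent. A protein-coding gene on the same strand, 9230102O04Rik, also overlaps exons of Gata3, whose values are thus uncertain with or without strand. RPKM divides by gene length, so levels can be set between genes: in wild type EBs of both lines Krt8 and Krt18 exceeded every other member in every library.

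**Figure D1:**
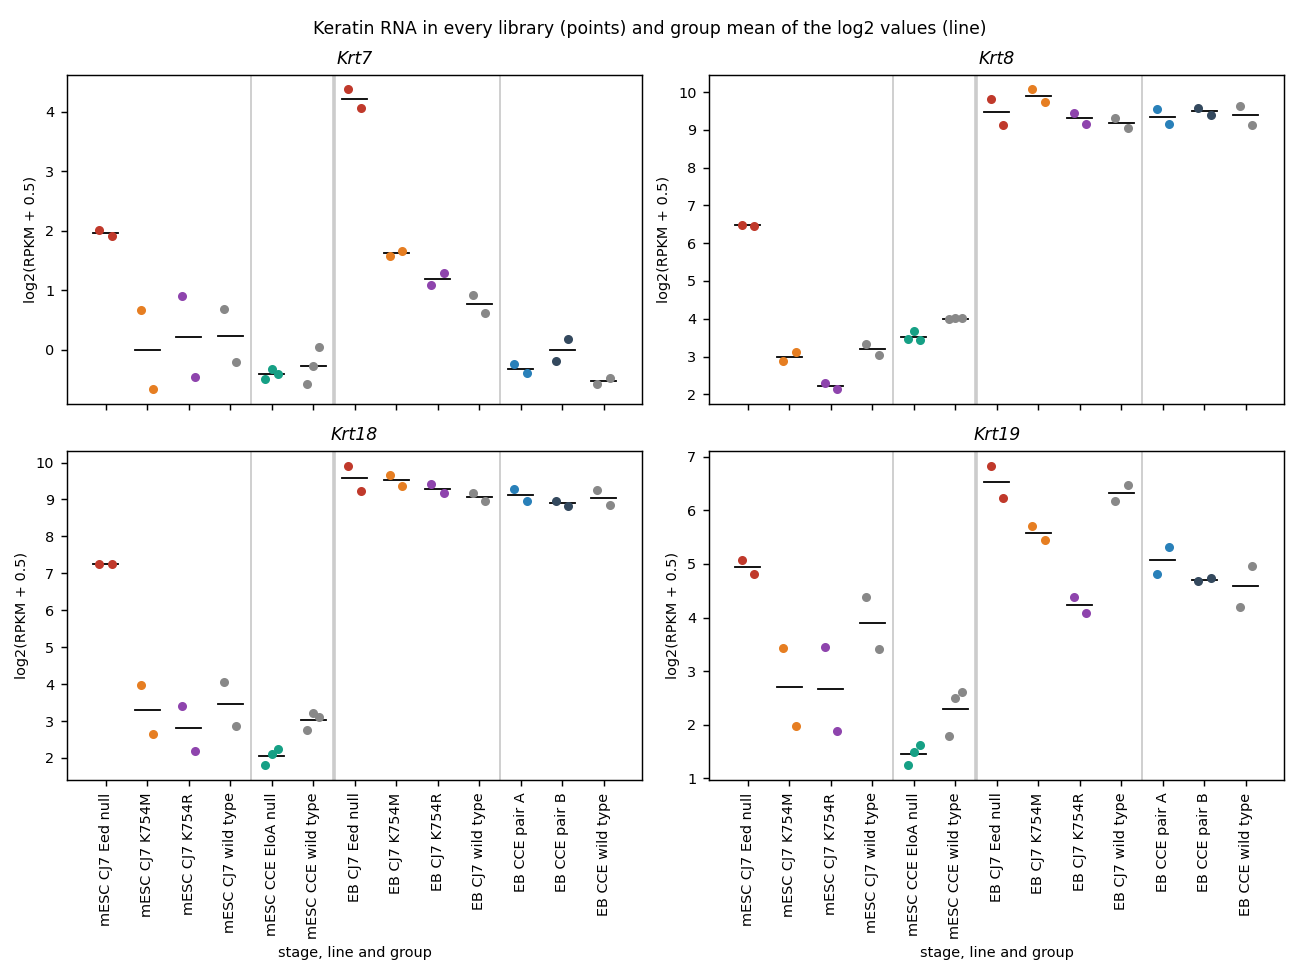
RNA level of the 4 keratins on the log2(RPKM + 0.5) scale (y axis, differing between panels) in each of 13 groups (x axis); points are libraries, black lines the mean of the log2 values, grey vertical lines separate line and stage. Krt8 and Krt18 reach 86.4 RPKM or more in Eed null mESCs and all EBs and stay at or below 16.2 RPKM in the other mESCs; Krt7 is highest in Eed null EBs.

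**Figure D2:**
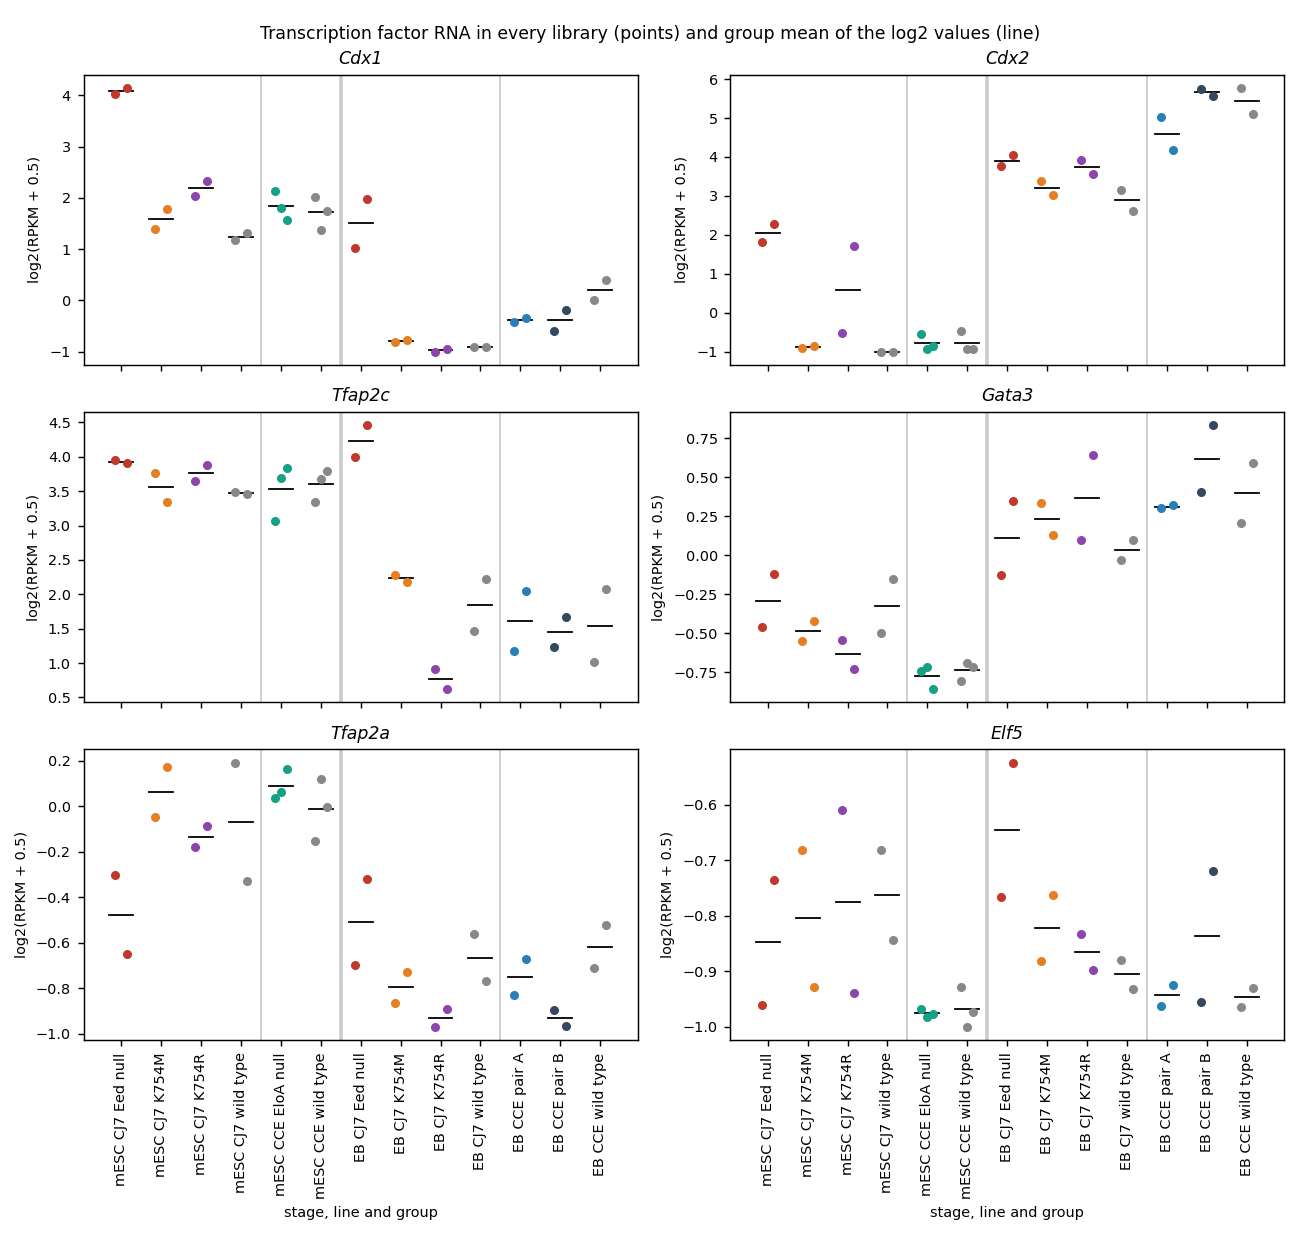
RNA level of the 6 transcription factors on the log2(RPKM + 0.5) scale (y axis, differing between panels) in the same 13 groups (x axis); points are libraries and black lines the mean of the log2 values. Cdx2 is at 0 RPKM (-1 on this scale) in both CJ7 wild type mESC libraries and highest in CCE EBs, while Elf5 stays at or below 0.195 RPKM throughout.

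In mESCs the loss of Eed was set against CJ7 wild type. Krt8, Krt18, Cdx1 and Cdx2 were higher in Eed null mESCs. These were 4 of the 9 members tested; Cdx2 reached 0.25 RPKM in the 2 Eed null libraries and in K754R library 2 alone, so it was tested only because of the Eed null libraries and its call adds nothing to the count. Over all 21012 genes tested 5.32% were called higher and 8.59% in either direction. A gene was called at a limma adjusted p below 0.05, and log2 changes are on the log2(RPKM + 0.5) scale, which understates the change of low genes. In such bulk RNA more cells of a type and more RNA per cell cannot be told apart.
Krt8 was 89.6 and 86.4 RPKM in Eed null and 9.60 and 7.77 RPKM in wild type (log2 change 3.28 ± 0.16 SE, adjusted p = 0.00055). Krt18, its partner, was 153 and 152 RPKM in Eed null and 16.2 and 6.75 RPKM in wild type (3.80 ± 0.60, adjusted p = 0.0154). For both genes the groups lay far apart. Within these 2 groups nearly all of the Krt18 spread lay in the wild type libraries. The SE also draws on the K754M and K754R libraries of the same fit, at 15.1 and 5.81 RPKM and at 10.2 and 4.09 RPKM.
Cdx1 was 15.8 and 17.2 RPKM in Eed null and 1.76 and 1.98 RPKM in wild type (2.85 ± 0.22, adjusted p = 0.0014). Cdx2 was 3.01 and 4.35 RPKM in Eed null, from 95 and 133 reads, and 0 in both wild type libraries, from 0 reads (adjusted p = 0.0404). Against a floor of 3 reads per wild type library Cdx2 was at least 33.8-fold higher in Eed null, counting error only. The Krt8 and Cdx1 calls were kept whichever of the 4 libraries was left out, while the Krt18 and Cdx2 calls were lost in each case, at log2 changes of 3.20 to 4.40 and 2.81 to 3.28. The Cdx2 call was also lost when genes of low level were not filtered out (adjusted p = 0.0631).

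The other keratins did not pass the test. Krt7 was 3.52 and 3.29 RPKM in Eed null and 1.11 and 0.369 RPKM in wild type (1.72 ± 0.61, adjusted p = 0.136). Its difference passed when all 14 mESC libraries shared 1 fit (limma adjusted p = 0.0281). For Eed null that fit called 5211 of 21780 genes in place of 1805 of 21012. Krt19 was 33.2 and 27.7 RPKM in Eed null and 20.4 and 10.1 RPKM in wild type (1.05 ± 0.66, adjusted p = 0.366).
Tfap2c was 14.9 and 14.5 RPKM in Eed null and 10.7 and 10.5 RPKM in wild type (0.45 ± 0.18, adjusted p = 0.174). Gata3, at 0.226 and 0.420 RPKM in Eed null and 0.209 and 0.402 RPKM in wild type, and Tfap2a, at 0.310 and 0.137 RPKM in Eed null and 0.642 and 0.295 RPKM in wild type, overlapped between the groups (adjusted p = 0.959 and 0.393). Both factors thus stayed at or below 0.642 RPKM in these libraries, and Elf5 had 1 and 7 reads in Eed null against 7 and 4 in wild type.

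Among 24 other trophoblast genes tested, 11 were called higher and 0 lower in Eed null mESCs (15 had an unadjusted p below 0.05), with a median log2 change of 1.18 beside 0.05 over all genes tested. They included the placental homeobox genes Rhox6 (72.6 RPKM in Eed null and 0.890 in wild type, 5.76 ± 0.34, adjusted p = 0.000676) and Rhox9 (21.6 and 0.663 RPKM, 4.25 ± 0.27), Sfmbt2, a Polycomb protein of extraembryonic tissue (66.6 and 6.25 RPKM, 3.32 ± 0.25), and the protease gene Tmprss2 (2.60 and 0.0431 RPKM, 2.51 ± 0.23). Of the defining trophoblast markers, Prl3d1, a hormone of giant cells, was at 0 in both Eed null libraries and Tpbpa, of the spongiotrophoblast, at 0.0524 and 0 RPKM. Gcm1, which drives syncytiotrophoblast formation, was 0.318 and 0.437 RPKM in Eed null and 0.0890 and 0.0362 RPKM in wild type. Eomes, the remaining defining marker, went the other way, at 1.75 and 1.84 RPKM in Eed null and 3.05 and 2.26 RPKM in wild type. Among CJ7 mESCs, Gcm1 and Hand1, which is also on this list, reached 0.25 RPKM in the Eed null libraries alone. The Hand1 call thus adds nothing to the count of trophoblast genes, and a call of Gcm1 would not either. Whether other calls of the list rest on the filter in this way was not examined.
Of 8 other keratins tested 1 was called, Krt14, a keratin of stratified epithelium. It was 3.76 and 4.05 RPKM in Eed null and listed at 0 in both wild type libraries (limma adjusted p = 0.000957). Krt14 passed the filter through the Eed null libraries alone, so its call adds nothing to the count. Epithelial junction and surface genes moved both ways, with 3 higher and 2 lower of 23 and a median of 0.29. Spint1 (1.31 ± 0.16) and Epcam (1.27 ± 0.29) were among the higher genes, and Cdh1, which encodes E-cadherin, was lower (39.7 and 132 RPKM, -1.72 ± 0.20, adjusted p = 0.00599).
Other lists also held called genes: extraembryonic endoderm had 5 higher of 17 (median 0.93), among them Apoa2 (3.54 ± 0.43) and Amn (2.16 ± 0.39), mesoderm 1 of 10, Hand1 (1.12 ± 0.21), and primordial germ cell markers 1 higher, Dppa3 (2.26 ± 0.36), and 1 lower, Kit (-0.97 ± 0.17), of 9. Surface ectoderm and neural crest markers had 1 of 7, again Krt14. Hand1, like Krt14, passed the filter through the Eed null libraries alone, so these calls add nothing to the counts of their lists. Of 14 pluripotency genes Sox2 was lower (-0.57 ± 0.11, adjusted p = 0.0302). Of 10 paralogs of the factors none passed in limma, and 1 had an unadjusted p below 0.05. The 13 fibroblast markers summed to 198 and 293 RPKM in Eed null and 154 and 194 RPKM in wild type mESCs, and 1 of them, Postn, was lower (-2.82 ± 0.59). Their part in the result was not tested.

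At the EB stage the same genotypes were compared. Krt7, Cdx1, Cdx2 and Tfap2c were higher in Eed null EBs, 4 of the 8 members tested, in a comparison in which 19.2% of the 19300 genes tested were called higher and 30.4% in either direction. Cdx1 passed the filter through the 2 Eed null libraries alone, so its call adds nothing to the count. Tfap2a, which reached 0.301 RPKM in 1 Eed null library, and Elf5 did not pass the filter.
Krt7, a keratin of trophoblast and of simple epithelia with ducts, was 20.2 and 16.2 RPKM in Eed null and 1.40 and 1.03 RPKM in wild type (3.45 ± 0.19, adjusted p = 4.99e-05). Tfap2c was 15.5 and 21.5 RPKM in Eed null and 2.27 and 4.18 RPKM in wild type (2.38 ± 0.28, adjusted p = 0.000841). Both genes were thus clearly apart between the groups.
Cdx1 was 1.53 and 3.46 RPKM in Eed null, from 107 and 211 reads, and 0.0363 and 0.0356 RPKM in wild type, from 2 reads each (2.40 ± 0.29, adjusted p = 0.000989). Cdx2 was 13.1 and 16.1 RPKM in Eed null and 8.43 and 5.63 RPKM in wild type (1.02 ± 0.23, adjusted p = 0.0149). With no filter the Cdx1 adjusted p was 0.00332, and without either Eed null library Cdx1 was below the filter and could not be tested. The Cdx2 groups were close, and its call was lost without Eed null library 2 (adjusted p = 0.0676) or wild type library 2 (0.0787).
Krt8 was 898 and 563 RPKM in Eed null and 634 and 533 RPKM in wild type (0.29 ± 0.26, adjusted p = 0.442), and Krt19 was 113 and 74.7 RPKM in Eed null and 71.7 and 87.8 RPKM in wild type (0.21 ± 0.22, adjusted p = 0.51). Their groups overlapped. Krt18 was 966 and 601 RPKM in Eed null and 578 and 501 RPKM in wild type (0.50 ± 0.25, adjusted p = 0.177), and passed without Eed null library 2 (0.84 ± 0.20, adjusted p = 0.0272). Gata3 was 0.416 and 0.772 RPKM in Eed null and 0.481 and 0.571 RPKM in wild type (adjusted p = 0.856).

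The genes around them in these EBs were largely higher, as were many genes outside the lists. Of 26 other trophoblast genes 16 were higher and 3 lower, led by Rhox6 (302 RPKM in Eed null and 6.28 in wild type, 5.42 ± 0.27), Rhox9 (5.25 ± 0.23), Sfmbt2 (3.504 ± 0.25) and the Wnt ligand gene Wnt7b (3.21 ± 0.21). Differentiated trophoblast markers were low but present. Gcm1 was 2.93 and 2.60 RPKM in Eed null and 0.109 and 0.0614 RPKM in wild type. Tpbpa was 0.841 and 0.251 RPKM against 0 in both wild type libraries, and Prl3d1 0.0296 and 4.54 RPKM against 0 in both. Eomes and Hand1 went the other way. Eomes was 4.06 and 6.99 RPKM in Eed null and 20.4 and 17.9 RPKM in wild type. Hand1 was 1.12 and 1.93 RPKM in Eed null and 13.6 and 10.1 RPKM in wild type.
Of 7 other keratins 5 were higher and 2 lower, with Krt42 (2.30 ± 0.18), Krt14 (2.14 ± 0.29), Krt23 (1.94 ± 0.17) and Krt15 (1.21 ± 0.27) showing the largest changes. Of 23 epithelial genes 11 were higher and 0 lower, among them the claudin genes Cldn4 (138 RPKM in Eed null and 38.8 in wild type, 1.96 ± 0.40) and Cldn3 (1.38 ± 0.24), the splicing regulator Esrp2 (1.56 ± 0.18) and the epithelial factor Grhl2 (1.25 ± 0.21).
Among 9 paralogs of the factors 3 were higher and 2 lower, with Gata2 (2.45 ± 0.23) and Elf4 (1.24 ± 0.25) higher and Gata6 (-1.19 ± 0.24) and Gata1 (-0.84 ± 0.24) lower.
Markers of other tissues and cell states were called as well. Extraembryonic endoderm markers had 16 higher and 3 lower of 22, led by Afp (87.3 RPKM in Eed null and 1.46 in wild type, 5.51 ± 0.34) and Apob (5.09 ± 0.16), and primordial germ cell markers 7 higher of 9, led by Dppa3 (4.44 ± 0.18). Pluripotency genes had 11 higher of 14, led by Nr0b1 (5.58 ± 0.21) and Zfp42 (4.79 ± 0.28). Surface ectoderm and neural crest markers, taken as 1 list, had 5 higher and 2 lower of 7, led by Foxd3 (2.68 ± 0.30). Mesoderm markers had 2 higher and 9 lower of 15, led by Mesp1 (1.32 RPKM in Eed null and 46.5 in wild type, -4.64 ± 0.31), and fibroblast markers 3 higher of 12, led by Col3a1 (1.33 ± 0.30). The part of these cell types in the members' levels was not tested.

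The Eed null effect differed between the stages for 3 of the 9 members tested, in a contrast (EB effect minus mESC effect) over the 16 CJ7 libraries, made of differences taken within each table, that called 14.7% of 22818 genes. The effect on Krt8 was smaller in EBs than in mESCs, with a log2 difference of -2.99 ± 0.31 (adjusted p = 0.000102), and so was that on Krt18 (-3.30 ± 0.70, adjusted p = 0.00944). The effect on Tfap2c was larger in EBs (1.93 ± 0.35, adjusted p = 0.00404). These calls were kept in every alternative run, leaving out each of the 8 libraries in turn included.
For Krt7 the difference was 1.72 ± 0.68 (adjusted p = 0.118), for Cdx2 -2.02 ± 0.75 (adjusted p = 0.0986), for Krt19 -0.84 ± 0.76 and for Cdx1 -0.44 ± 0.39 (adjusted p = 0.521 and 0.514). The Cdx2 difference was called at a pseudocount of 0.1 (-4.15, adjusted p = 0.0248) and that of Krt7 at a pseudocount of 1 (1.74, adjusted p = 0.0331). In the same contrast 4 of 9 other keratins were called higher and 1 lower in EBs, among them Krt42 (2.48 ± 0.52) and Krt17 (1.64 ± 0.32), and 4 of 27 other trophoblast genes higher and 5 lower, led by Msx2 (-3.79 ± 0.58) and Hand1 (-3.74 ± 0.33).

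**Figure D3:**
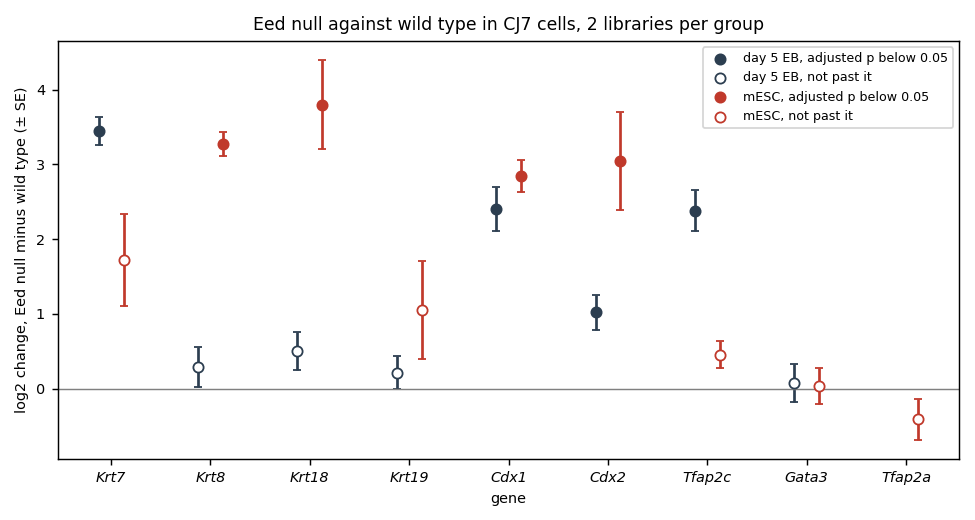
Log2 change on the log2(RPKM + 0.5) scale (y axis, Eed null minus wild type, ± SE of the limma fit, 2 libraries per group) for 9 genes (x axis) in day 5 EBs (dark blue, left) and mESCs (red, right) of the CJ7 line; filled points passed an adjusted p of 0.05. Krt8 and Krt18 stand at 0.29 and 0.50 in EBs and at 3.28 and 3.80 in mESCs, and Tfap2c at 2.38 in EBs and 0.45 in mESCs.

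The Elongin A lysine mutants were compared with the same wild type libraries that served for Eed null. In K754M mESCs no member was called, in a comparison that called 0 (0%) of 21012 genes with limma although 2103 had an unadjusted p below 0.05; none of the 9 members tested did. Krt8 was 6.85 and 8.18 RPKM in K754M and 9.60 and 7.77 RPKM in wild type, and Krt18 was 15.1 and 5.81 RPKM in K754M and 16.2 and 6.75 RPKM in wild type. The 2 Krt18 libraries of each group were much farther apart than the groups. Krt19 was 10.3 and 3.44 RPKM in K754M and 20.4 and 10.1 RPKM in wild type (-1.19 ± 0.66, adjusted p = 0.648). Krt7 was 1.09 and 0.137 RPKM in K754M and 1.11 and 0.369 RPKM in wild type, and again each group's libraries were far apart. Tfap2c was 13.1 and 9.61 RPKM in K754M and 10.7 and 10.5 RPKM in wild type, and Cdx1 was 2.13 and 2.95 RPKM in K754M and 1.76 and 1.98 RPKM in wild type (0.35 ± 0.22, adjusted p = 0.697). Gata3 and Tfap2a stayed below 0.7 RPKM in both groups, and Cdx2 had 1 and 2 reads in K754M and 0 in wild type.
In K754R mESCs no member passed either, and 0.162% of all genes tested were called. An unadjusted limma p below 0.05 was found for 3 of 9 members and for 3000 of 21012 genes. Krt8 was 4.43 and 3.93 RPKM in K754R and 9.60 and 7.77 RPKM in wild type (-0.97 ± 0.16, adjusted p = 0.0829), and Cdx1 3.60 and 4.55 RPKM in K754R and 1.76 and 1.98 RPKM in wild type (0.94 ± 0.22, adjusted p = 0.137). Both genes passed when all 14 mESC libraries shared 1 fit (limma adjusted p = 0.00187 and 0.0382). That fit called 1747 of 21780 genes for K754R in place of 34 of 21012. Krt18 was 10.2 and 4.09 RPKM in K754R and 16.2 and 6.75 RPKM in wild type, Krt19 was 10.4 and 3.17 RPKM in K754R and 20.4 and 10.1 RPKM in wild type, and Krt7 was 1.37 and 0.229 RPKM in K754R and 1.11 and 0.369 RPKM in wild type. All 3 overlapped between the groups (adjusted p = 0.668, 0.469 and 1). Tfap2c was 12.1 and 14.3 RPKM in K754R and 10.7 and 10.5 RPKM in wild type (adjusted p = 0.527), Gata3 0.186 and 0.104 RPKM in K754R and 0.209 and 0.402 RPKM in wild type (0.612), and Tfap2a 0.383 and 0.440 RPKM in K754R and 0.642 and 0.295 RPKM in wild type (0.945).
Cdx2 was uneven in K754R mESCs, at 0.196 and 2.79 RPKM, from 5 and 115 reads, with 0 reads in both wild type libraries (adjusted p = 0.345). The library with 115 reads was also the one with the highest summed level of the 13 fibroblast markers, 738 RPKM against 196 RPKM in the other K754R library and 154 and 194 RPKM in wild type; their part in the Cdx2 value was not tested. No gene of the lists was called in either mutant. An unadjusted limma p below 0.05 was found for 11 of 23 epithelial genes in K754R and 7 of 23 in K754M. The median log2 changes of that list were -0.30 and -0.33. Of 24 other trophoblast genes 7 in K754R and 2 in K754M had an unadjusted p below 0.05. Over all 21012 genes tested 3000 and 2103 did.

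At the EB stage 1 member, a keratin, was called in K754R, a count near the share over all genes. K754R EBs had less Krt19, the type I keratin without a tail domain, at 20.3 and 16.4 RPKM in K754R and 71.7 and 87.8 RPKM in wild type (-2.09 ± 0.22, adjusted p = 0.00455). This was 1 of 8 members tested, where 4.85% of the 19300 genes were called lower and 9.68% in either direction, and it was kept whichever library was left out. The all-gene count depended on the libraries, with 1868 genes called in all and 177 to 1249 without 1 library. Tfap2c was 1.39 and 1.04 RPKM in K754R and 2.27 and 4.18 RPKM in wild type (-1.08 ± 0.28, adjusted p = 0.0522). Cdx2 was 14.7 and 11.3 RPKM in K754R and 8.43 and 5.63 RPKM in wild type (0.86 ± 0.23, adjusted p = 0.0615). Neither passed in the main fit.
Krt7 was 1.62 and 1.96 RPKM in K754R and 1.40 and 1.03 RPKM in wild type, Krt8 698 and 573 RPKM in K754R and 634 and 533 RPKM in wild type, and Krt18 680 and 573 RPKM in K754R and 578 and 501 RPKM in wild type. None of these 3 passed (limma adjusted p = 0.203, 0.812 and 0.632), so of the members Krt19 was the only keratin called. Cdx1 had 0 and 1 read in K754R and 2 reads in each wild type library, too few to compare. Gata3 was 0.571 and 1.06 RPKM in K754R and 0.481 and 0.571 RPKM in wild type (adjusted p = 0.438).
In K754M EBs no member was called, with 0.565% of all genes called. An unadjusted limma p below 0.05 was found for 2934 of the 19300 genes and for 3 of the 8 members. These were Krt7, at 2.50 and 2.68 RPKM in K754M and 1.40 and 1.03 RPKM in wild type (0.85 ± 0.19, adjusted p = 0.104), Krt8, at 1072 and 848 RPKM in K754M and 634 and 533 RPKM in wild type (0.71 ± 0.26, adjusted p = 0.259), and Krt19, at 51.4 and 42.8 RPKM in K754M and 71.7 and 87.8 RPKM in wild type (-0.75 ± 0.22, adjusted p = 0.187). Krt18 was 811 and 664 RPKM in K754M and 578 and 501 RPKM in wild type (limma adjusted p = 0.461). Cdx2 was 9.98 and 7.69 RPKM in K754M and 8.43 and 5.63 RPKM in wild type, and Tfap2c was 4.37 and 4.05 RPKM in K754M and 2.27 and 4.18 RPKM in wild type (adjusted p = 0.568 each). Gata3 was 0.760 and 0.593 RPKM in K754M and 0.481 and 0.571 RPKM in wild type, and Cdx1 had 4 and 5 reads in K754M and 2 in each wild type library.

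Set directly against K754R, K754M EBs had more Krt19 and Tfap2c. Krt19 was 51.4 and 42.8 RPKM in K754M and 20.3 and 16.4 RPKM in K754R (1.34 ± 0.22, adjusted p = 0.0246), and Tfap2c was 4.37 and 4.05 RPKM in K754M and 1.39 and 1.04 RPKM in K754R (1.46 ± 0.28, adjusted p = 0.0373). Of the 8 members tested 2 were called, with 1.9% of all genes called higher and 3.62% in either direction. Both calls were lost without any 1 of the 4 libraries (log2 changes 1.19 to 1.49 and 1.31 to 1.61) and when genes of low level were not filtered out. Over all genes 698 were called, against 21 to 64 without 1 library. The K754M and K754R effects differed between the stages for 0 of 9 members each. Of 22818 genes 0.193% and 2.03% were called. An unadjusted limma p below 0.05 was found for 1 and 3 members and for 2054 and 3394 genes.

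The lists around them moved in K754R EBs as well. Of 26 other trophoblast genes 2 were higher and 7 lower, among them Plac8 (1.25 RPKM in K754R and 7.39 in wild type, -2.16 ± 0.21), the placental gene Plac1 (3.89 and 0.979 RPKM, 1.57 ± 0.16), Rhox6 (-1.56 ± 0.27) and Sfmbt2 (-1.53 ± 0.25). Of 23 epithelial genes 3 were lower, the desmosome gene Pkp3 (-0.84 ± 0.16), Cldn7 (-0.76 ± 0.14) and Prss8 (-0.67 ± 0.16), and of 7 other keratins Krt17 was lower, listed at 0 in K754R and at 0.393 RPKM in wild type. Of 9 paralogs Gata4 (0.82 ± 0.19) and Elf1 (0.72 ± 0.16) were higher.
Pluripotency genes had 6 lower of 14, led by Pou5f1 (5.61 and 3.44 RPKM in K754R and 47.9 and 50.2 RPKM in wild type, -3.34 ± 0.19, adjusted p = 0.00063), primordial germ cell markers 4 lower of 9, led by Dppa3 (-2.21 ± 0.18), and mesoderm markers 1 higher and 7 lower of 15, led by Msgn1 (-3.13 ± 0.32). Extraembryonic endoderm had 5 higher and 1 lower of 22, with Afp lower (-1.43 ± 0.34) and Pdgfra higher (1.08 ± 0.18). Surface ectoderm and neural crest markers had 2 higher and 2 lower of 7. Fibroblast markers had 7 higher of 12, led by Postn (3.56 ± 0.35), and summed to 41.6 and 35.1 RPKM in K754R and 11.1 and 6.59 RPKM in wild type EBs, with Col1a1 at 1.34 and 1.47 RPKM in K754R and 0.591 and 0.427 RPKM in wild type. Their part in the members' values was not tested.
In K754M EBs Plac1 (1.32 ± 0.16) and Apob (1.26 ± 0.16) were higher and Epcam, a surface protein of epithelial and stem cells, was lower (46.7 RPKM in K754M and 105 in wild type, -1.15 ± 0.12, adjusted p = 0.0219); these were the only calls in the lists. Against K754R, K754M EBs had 5 higher and 1 lower of 26 other trophoblast genes, led by Rhox6 (2.77 ± 0.27), 8 higher of 14 pluripotency genes, led by Dppa5a (3.45 ± 0.34), 6 higher of 15 mesoderm markers, led by T (2.17 ± 0.16), and 5 higher of 9 germ cell markers, led by Dppa3 (1.99 ± 0.18). Fibroblast markers had 3 lower of 12, led by Postn (0.526 RPKM in K754M and 9.58 in K754R, -3.28 ± 0.35), and extraembryonic endoderm 2 higher and 1 lower of 22, among them Afp (3.21 RPKM in K754M and 0.215 in K754R, higher). Of 23 epithelial genes Perp was higher (0.67 ± 0.12) and Epcam lower (-0.88 ± 0.12). The part of these cell type markers in the Krt19 and Tfap2c differences was not tested.

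**Figure D4:**
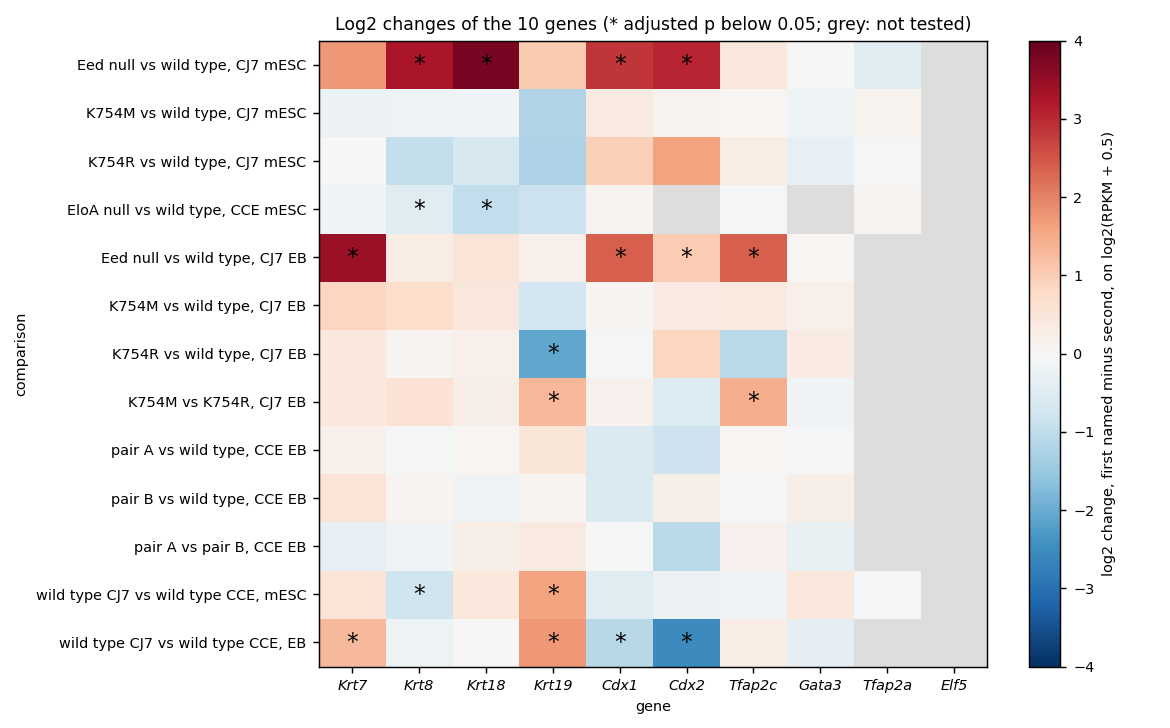
Log2 change on the log2(RPKM + 0.5) scale (colour, group named first minus group named second) of the 10 genes (x axis) in 13 comparisons (y axis); stars mark an adjusted p below 0.05 and grey cells were not tested. Krt19 is called lower in K754R EBs (-2.09) and higher in K754M against K754R (1.34), and no member is called in the comparisons of pairs A and B.

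Loss of Elongin A in CCE mESCs went with less Krt8 and Krt18, the pair that was higher without Eed in the other line. Krt8 was 10.6, 12.2 and 10.3 RPKM in EloA null and 15.4, 15.7 and 15.6 RPKM in wild type (-0.48 ± 0.07, adjusted p = 0.022). Krt18 was 3.01, 3.78 and 4.24 RPKM in EloA null and 6.30, 8.79 and 8.11 RPKM in wild type (-0.98 ± 0.16, adjusted p = 0.0255). For both genes the lowest wild type library lay above the highest EloA null library. These were 2 of the 7 members tested, and 1.23% of the 18460 genes tested were called lower and 3.35% in either direction.
Krt19 was 1.88, 2.33 and 2.57 RPKM in EloA null and 2.96, 5.15 and 5.63 RPKM in wild type (-0.84 ± 0.23, adjusted p = 0.12). With the replicate number as a block Krt19 passed as well (adjusted p = 0.0184), and 2288 genes were called in place of 619. Krt7 was 0.217, 0.305 and 0.258 RPKM in EloA null and 0.171, 0.329 and 0.532 RPKM in wild type (adjusted p = 0.77).
The factors overlapped between the groups: Tfap2c was 7.87, 12.5 and 13.8 RPKM in EloA null and 9.66, 12.2 and 13.4 RPKM in wild type (adjusted p = 0.902), Cdx1 3.87, 3.01 and 2.46 RPKM in EloA null and 3.55, 2.11 and 2.86 RPKM in wild type (0.809), and Tfap2a 0.525, 0.546 and 0.621 RPKM in EloA null and 0.399, 0.586 and 0.496 RPKM in wild type (0.744). Cdx2, Gata3 and Elf5 were below the filter, Cdx2 with 15, 2 and 3 reads in EloA null and 24, 2 and 2 in wild type.
The keratin calls changed as libraries were left out. The Krt8 call did not survive leaving out EloA null library 1 or 3, or wild type library 2 or 3. The Krt18 call did not survive the loss of any EloA null library or of wild type library 2 or 3. The Krt8 call was kept without EloA null library 2 or wild type library 1, and the Krt18 call without wild type library 1. Where the calls were lost the log2 changes were -0.48 to -0.44 and -1.07 to -0.86, and neither gene passed with all 14 mESC libraries in 1 fit (adjusted p = 0.0551 and 0.547). The fibroblast markers summed to 388, 160 and 203 RPKM in EloA null and 276, 104 and 73.0 RPKM in wild type, with a median log2 change of 0.83 over the 13 and none at 0 in any of these libraries, and depth was lower in EloA null; their part in the result was not tested.
In the lists few genes passed. Perp, a desmosome gene, was higher (33.1 RPKM in EloA null and 21.4 in wild type, 0.61 ± 0.12), 1 of 21 epithelial genes, and Lgals3 (27.2 and 11.5 RPKM, 1.21 ± 0.06, adjusted p = 0.0016) was higher, 1 of 19 other trophoblast genes. Lama1 (-0.55 ± 0.09), Kit (-0.45 ± 0.05) and Klf4 (-0.40 ± 0.05) were lower, 1 each of 13 endoderm, 9 germ cell and 14 pluripotency genes. Of 5 other keratins none passed in limma, nor had any an unadjusted p below 0.05.

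No member was called in the CCE EBs, whether each pair was set against wild type or pair A against pair B. Among all 17735 genes tested, limma called 0 (0%) for pair A against wild type, 0.135% for pair B against wild type and 0.44% for pair A against pair B. In the same order an unadjusted limma p below 0.05 was found for 1166, 2746 and 3319 genes, and for 1, 0 and 1 of the 8 members tested. Both pairs were set against the same wild type libraries. Cdx2 was 31.9 and 17.7 RPKM in pair A, 53.4 and 47.3 RPKM in pair B and 54.4 and 33.9 RPKM in wild type. On average pair A lay below both other groups (-0.84 ± 0.33 against wild type, limma adjusted p = 0.737, and -1.06 ± 0.33 against pair B, adjusted p = 0.174).
Krt8 was 747 and 568 RPKM in pair A, 769 and 672 RPKM in pair B and 792 and 562 RPKM in wild type. Krt19 was 27.6 and 39.5 RPKM in pair A, 25.0 and 26.0 RPKM in pair B and 17.9 and 30.6 RPKM in wild type. Krt7 was 0.344 and 0.262 RPKM in pair A, 0.378 and 0.631 RPKM in pair B and 0.176 and 0.224 RPKM in wild type. Krt18 was 621 and 499 RPKM in pair A, 501 and 456 RPKM in pair B and 609 and 458 RPKM in wild type, so the 3 groups overlapped. Tfap2c was 1.76 and 3.65 RPKM in pair A, 1.86 and 2.68 RPKM in pair B and 1.51 and 3.72 RPKM in wild type. Cdx1 was 0.251 and 0.293 RPKM in pair A, 0.162 and 0.382 RPKM in pair B and 0.500 and 0.822 RPKM in wild type. Its mean was lower in both pairs than in wild type, without a call (limma adjusted p = 0.765 and 0.335). Gata3 was 0.733 and 0.748 RPKM in pair A, 0.826 and 1.28 RPKM in pair B and 0.653 and 1.005 RPKM in wild type. The lower Krt8 and Krt18 of EloA null mESCs thus had no called counterpart in either pair of EBs, and the difference between the stages was not tested in this line. In the lists the calls were Amn (2.72 ± 0.23) and Sparc (0.91 ± 0.09), higher in pair B, and 5 of 21 endoderm genes lower in pair A than in pair B, led by Amn (-2.54 ± 0.23) and Lama1 (-2.02 ± 0.21), with the fibroblast marker Fbn1 (-1.33 ± 0.16). Against wild type, 14 of 23 epithelial genes had an unadjusted limma p below 0.05 in pair A and 14 in pair B. Their median log2 changes were 0.575 and 0.604, without a call. Of 12 fibroblast markers 1 in pair A and 11 in pair B had such a p (medians -0.085 and 0.891).

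The wild type cells of the 2 lines also differed in some of these genes, in mESCs in a share close to that of all genes. Line and any difference in handling cannot be told apart here. In mESCs Krt8 was lower in CJ7, at 9.60 and 7.77 RPKM against 15.4, 15.7 and 15.6 RPKM in CCE (-0.81 ± 0.12, adjusted p = 0.000604), and Krt19 was higher, at 20.4 and 10.1 RPKM in CJ7 against 2.96, 5.15 and 5.63 RPKM in CCE (1.59 ± 0.51, adjusted p = 0.0462). These were 2 of 9 members tested, with 22.7% of 21780 genes called in either direction. The Krt19 call was lost without CJ7 library 1 or any CCE library, at log2 changes of 1.11 to 1.75.
In EBs 4 of 8 were called, with 6.82% of 20039 genes called in either direction. Krt7 was 1.40 and 1.03 RPKM in CJ7 and 0.176 and 0.224 RPKM in CCE (1.29 ± 0.19, adjusted p = 0.00388), and Krt19 was 71.7 and 87.8 RPKM in CJ7 and 17.9 and 30.6 RPKM in CCE (1.74 ± 0.28, adjusted p = 0.00517). The caudal factors were lower in CJ7: Cdx2 was 8.43 and 5.63 RPKM in CJ7 and 54.4 and 33.9 RPKM in CCE (-2.55 ± 0.31, adjusted p = 0.00123), and Cdx1 0.0363 and 0.0356 RPKM in CJ7 and 0.500 and 0.822 RPKM in CCE (-1.10 ± 0.28, adjusted p = 0.0422). The Cdx1 call was lost without any 1 of the 4 libraries, at log2 changes of -1.30 to -0.90, and with no filter (adjusted p = 0.0677). Krt8 and Krt18 overlapped between the lines in EBs.
Of 23 epithelial genes 19 were higher and 0 lower in CJ7 wild type EBs, led by Cldn4 (38.8 RPKM in CJ7 and 4.71 in CCE, 2.77 ± 0.38) and Cdh1 (79.6 and 12.4 RPKM, 2.64 ± 0.24), with a median log2 change of 1.54 beside 0.01 over all genes tested. Of 26 other trophoblast genes 7 were higher and 5 lower, led by Plac1 (-2.38 ± 0.18) and Rhox6 (2.33 ± 0.26). Among 10 paralogs of the factors 3 were higher and 1 lower; the lower was Cdx4, the third caudal gene, at 0.0160 RPKM in CJ7 and 0.663 RPKM in CCE (-1.17 ± 0.14, adjusted p = 0.00119). In wild type mESCs 5 epithelial genes were higher and 1 lower of 23, led by Ocln (1.17 ± 0.25), and 2 other trophoblast genes higher and 5 lower of 24, led by Peg10 (-1.53 ± 0.27).
Markers of other cell types moved between the lines as well. In wild type EBs pluripotency genes had 4 higher of 14 in CJ7, among them Dppa5a (66.0 RPKM in CJ7 and 14.3 in CCE, 2.15 ± 0.35), and germ cell markers 2 higher of 9, among them Dppa3 (2.04 ± 0.22). Extraembryonic endoderm had 4 higher and 2 lower of 22, among them Foxa2 (1.88 ± 0.18), and mesoderm 1 higher and 3 lower of 15, among them Hand1 (-2.03 ± 0.20). Surface ectoderm and neural crest markers had 2 higher and 2 lower of 7, and fibroblast markers 2 lower of 13, among them Col1a1 (-2.92 ± 0.19). In wild type mESCs pluripotency genes had 5 lower of 14, among them Klf4 (-1.44 ± 0.14), germ cell markers 4 higher of 9, among them Dppa3 (2.48 ± 0.34), extraembryonic endoderm 3 higher of 17 and mesoderm 1 lower of 10. Their part in the members' differences between the lines was not tested.

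Krt8 and Krt18 moved together but not in a fixed ratio. The ratio of Krt8 to Krt18 was 0.585 and 0.568 in Eed null mESCs against 0.593 and 1.15 in CJ7 wild type mESCs, and 0.929 and 0.936 in Eed null EBs against 1.10 and 1.06 in CJ7 wild type EBs. It was 3.501, 3.24 and 2.44 in EloA null mESCs against 2.44, 1.78 and 1.92 in CCE wild type. In the remaining groups it lay between 0.436 and 1.41 in mESCs and between 1.00 and 1.54 in EBs.
Over the 28 libraries, centred within each table, the log2 values of Krt8 and Krt18 had r = 0.81, Krt18 and Krt19 r = 0.76, and Krt7 and Tfap2c r = 0.72. Cdx2 followed Cdx1 (r = 0.60) but neither Krt7 (-0.06) nor Krt19 (0.05). Points of a group share line and genotype, so these values describe the 13 groups more than 28 independent samples.
Among 14084 genes with a mean of at least 1 RPKM, the patterns most like each member were Lonrf3 (r = 0.94), Plekhh1 (0.94) and Tgm2 (0.93) for Krt7, Fabp5 (0.93), Pkig (0.89) and Rps3a (0.88) for Krt8, and Frem2 (0.92), Alppl2 (0.92) and Scd3 (0.91) for Krt18. For Krt19 they were Tuft1 (0.96), Slc16a10 (0.94) and Ccdc36 (0.91), for Cdx1 Dgat2, Etnk2 and Olig2 (0.91 each), for Cdx2 Amigo2 (0.90), Fgfr2 (0.88) and Arl4c (0.83), and for Tfap2c they included Gm11019 and Fgf4 (0.93 each). For Elf5, Gata3 and Tfap2a, mostly near or below the pseudocount, the nearest genes reached r of 0.87, 0.79 and 0.74.

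**Figure D5:**
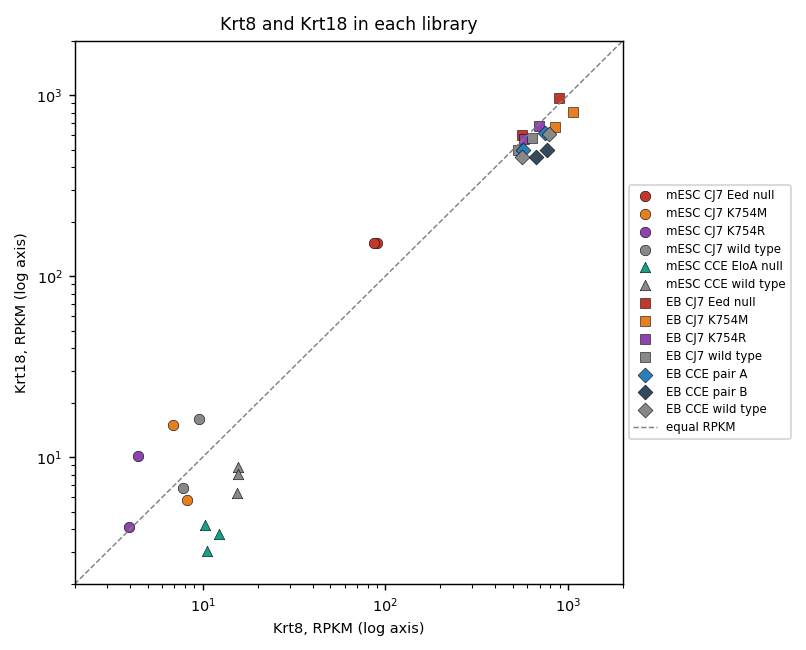
Krt18 (y axis) against Krt8 (x axis) in RPKM, both on log axes, for each of the 28 libraries; colour marks the group, shape the line and stage, and the dashed line equal values. Eed null mESCs (153 and 152 RPKM of Krt18) lie between the other mESCs and all EBs, and EloA null mESCs lie below the line of equal values, with ratios of Krt8 to Krt18 of 2.44 to 3.501.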

How the data were processed

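RNA-seq of 28 libraries was analysed from 2 tables of RPKM values that the authors deposited, 1 for mESCs and 1 for day 5 EBs, with 14 libraries each. Per the labels' protocols, total RNA was depleted of ribosomal RNA before library preparation. Per the submitters' processing notes, CASAVA 1.7, STAR and the mm9 genome were used, with no roles given; the annotation, the normalization and whether strand was used are not given in these sources.

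RPKM values were tested as log2(RPKM + 0.5) with limma 3.58.1 in R 4.3.3 (trended moderated variance) in 1 fit per stage and line, with all 14 libraries of a table for the wild type lines and the 16 CJ7 libraries for the stage differences. Genes entered a fit if 2 or more of its libraries held 0.25 RPKM or more, and were called at a Benjamini-Hochberg adjusted p below 0.05 over all genes tested. Values in parentheses are log2 changes with their SE, and p-values measure the spread between libraries, which may be technical. The script was tested on simulated data. Depth was estimated from the RPKM that 1 read gives, with gene lengths found for 32860 of 37583 genes. Between 39.5% and 45.5% of values below 0.3 RPKM came within 0.02 of a whole read, so no count test was run. Read numbers of members are estimates from this depth and a gene length fitted to give nearly whole reads. The fitted length was 5150 bases for Elf5 (5877 in GENCODE), 1752 for Cdx1 (1750) and 2266 for Cdx2 (2261).

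Replicate numbers come from the titles. Same-numbered EloA null and wild type mESC libraries deviated together (r = 0.512, 0.216 and 0.242), so a fit with the replicate number as a block was made there beside the main one. All 10 members could be named in any comparison, with some given only in counts, and from each list up to 4 called genes with the largest absolute change; a few genes that these rules pick are not reported here. The members and the lists (other trophoblast genes, epithelial genes, other keratins, paralogs of the factors, and markers of other cell types) were chosen with earlier results of these data known. Alternatives were pseudocounts of 0.1 and 1, no filter, a common median, no variance trend, the block, 1 fit per table and leaving out each library. Python 3.11.15 with pandas 2.3.3, numpy 2.4.6 and matplotlib 3.10.9 was used for the rest.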

Additional observations from a re-analysis of the deposited data

Results flagged for a closer look

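A test of the difference between stages called 3 of the 9 members tested, beside 14.7% of 22818 genes. The Eed null effect on Krt8 was 0.29 in EBs and 3.28 in mESCs on the log2 scale, a difference of -2.99 (EB effect minus mESC effect, limma adjusted p = 0.000102). For Krt18 the effects were 0.50 in EBs and 3.80 in mESCs, a difference of -3.30 (adjusted p = 0.00944). For Tfap2c they were 2.38 in EBs and 0.45 in mESCs, a difference of 1.93 (adjusted p = 0.00404). The groups of 2 or 3 libraries were too small to examine single libraries as outliers.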

How the results depend on the processing

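Among the alternative values of 44 single-member results, 444 kept their direction and side of the threshold, 47 were no longer called, 21 became called and 1 reversed. The reversed one was the difference of the K754R effect on Cdx2 between stages, which lay between -1.86 and 0.38 as libraries were left out. The number of members called changed as follows. With no filter it was 1 for EloA null mESCs (2 in the report), 0 for K754M against K754R EBs (2) and 1 for the wild type lines in mESCs (2), where rescaling to a common median and no trend also gave 1. One fit of all 14 libraries gave 2 for K754R mESCs (0), 0 for EloA null mESCs and 1 for K754M against K754R EBs. In K754R EBs (1) a pseudocount of 0.1 or rescaling gave 2. Leaving out libraries gave 2 in every case for Eed null mESCs (4), 0 to 3 for EloA null mESCs, 1 to 3 for K754R EBs, 0 for K754M against K754R, 0 to 1 for the stage difference of K754R and 1 to 2 for the wild type lines in mESCs.

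The replicate block gave 3 members in K754R EBs, adding Tfap2c (adjusted p = 0.0461) and Cdx2 (0.041), 1 between pairs A and B, Cdx2 (0.0324), and 1 for the stage difference of K754R; it also called Krt7 in Eed null mESCs (0.0363) and in the stage difference of Eed null (0.0208) and Krt18 in Eed null EBs (0.0466). Same-numbered libraries of these groups of 2 deviated together with r of 0.033 to 0.348 in CJ7 mESCs, 0.012 to 0.229 in CJ7 EBs and 0.183 to 0.425 in CCE EBs. They share only a number, so these values rest on no stated pairing. The block also raised the calls over all genes, to 2950 in K754R EBs from 1868 in the main fit and to 1462 between pairs A and B from 78. In Eed null it gave 2575 in mESCs in place of 1805 and 7062 in EBs in place of 5867. For the stage differences it gave 4444 in place of 3346 for Eed null and 702 in place of 463 for K754R.

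Over all genes, 1805 were called in Eed null mESCs, against 5211 with all 14 libraries in 1 fit and 179 to 417 without 1 library. EloA null mESCs had 619, against 2288 with the block, 296 in the fit of 14 and 158 to 640 without 1 library. Between pairs A and B 78 were called, against 1 at a pseudocount of 0.1 and 1462 with the block. With 2 or 3 libraries per group and 11100000 to 46300000 reads, members below the filter could not be compared.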
